A study of Mus musculus with 24 samples.

Results

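The Krüppel-like factors (KLFs) examined were *Klf2*, *Klf3*, *Klf4*, *Klf6*, *Klf7*, *Klf9*, *Klf10* and *Klf13*, chosen by gene symbol, and all 8 were present among the 56691 genes measured by poly(A) RNA-Seq in each cell type. Each group held 3 libraries, and the 8 groups combined 2 mouse macrophage types, 2 genotypes of *Olfml3*, which encodes a secreted olfactomedin-domain protein, and 2 treatments. RAW264.7 is a macrophage-like line from a male mouse, and its *Olfml3*-/- cells came from lentiviral CRISPR-Cas9 targeting followed by the isolation of single-cell clones, and which clone or clones were sequenced was not stated. Bone marrow-derived macrophages (BMDMs) came from 8-week-old male C57BL/6 mice, either wild type (*Olfml3*+/+) or *Olfml3*-/- made with CRISPR-Cas9, and were grown with L929 cell supernatant. Within each genotype the cells received lipopolysaccharide (LPS), the bacterial ligand of TLR4, at 100 ng/mL for 4 h, or PBS. The labels did not say whether the 3 replicates of a group were separate cultures or animals, so the p-values measure only the spread between these libraries.

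KLFs are transcription factors that bind GC-rich and CACCC sequences through zinc fingers at the C terminus, and their differing N-terminal regions recruit coactivators or corepressors. *Klf2* restrains inflammatory activation of endothelial and myeloid cells and lies downstream of the kinase ERK5 and MEF2 factors. *Klf4* takes part in monocyte differentiation and alternative activation of macrophages, and *Klf6* is known to promote NF-kappaB-driven inflammatory gene expression in macrophages. *Klf7* is best known from neuronal development. *Klf3* is a repressor that recruits CtBP, *Klf9* is induced by glucocorticoids, *Klf10* is an early TGF-beta-induced gene and *Klf13* was first described as a regulator of *Ccl5* in T cells.

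Promoter sequences are shown for *Klf2* and *Klf4*, which share upstream regulators, and for *Klf6* and *Klf7*, the members that rose with LPS, each as the 250 bases before the RefSeq start site on GRCm38.p6, written 5′ to 3′ on the gene's strand. RefSeq held an entry for 7 of the 8 members, all but *Klf10*. *Klf2* (ENSMUSG00000055148) spans chr8:72319033-72321656 in GENCODE M21, and its promoter window covers chr8:72318812-72319061 on the plus strand, and capitals mark GGGCGG and the single match to the MEF2 consensus.
Klf2: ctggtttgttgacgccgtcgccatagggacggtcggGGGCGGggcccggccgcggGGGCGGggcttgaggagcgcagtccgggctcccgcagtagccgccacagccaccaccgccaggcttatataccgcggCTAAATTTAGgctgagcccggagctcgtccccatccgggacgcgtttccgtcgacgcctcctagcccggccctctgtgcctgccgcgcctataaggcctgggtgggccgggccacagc
*Klf4* (ENSMUSG00000003032) spans chr4:55527143-55532466 in GENCODE M21, and its promoter window covers chr4:55532476-55532725 on the minus strand, with GGGCGG in capitals on either strand.
Klf4: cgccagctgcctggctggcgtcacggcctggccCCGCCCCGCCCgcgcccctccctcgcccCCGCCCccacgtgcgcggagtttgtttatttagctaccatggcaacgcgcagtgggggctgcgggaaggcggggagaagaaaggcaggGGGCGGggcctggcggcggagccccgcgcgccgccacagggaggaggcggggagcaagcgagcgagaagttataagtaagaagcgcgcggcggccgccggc
*Klf6* (ENSMUSG00000000078) spans chr13:5861482-5870394 in GENCODE M21, and its promoter window covers chr13:5861239-5861488 on the plus strand, with GGGCGG and CCAAT in capitals on either strand.
Klf6: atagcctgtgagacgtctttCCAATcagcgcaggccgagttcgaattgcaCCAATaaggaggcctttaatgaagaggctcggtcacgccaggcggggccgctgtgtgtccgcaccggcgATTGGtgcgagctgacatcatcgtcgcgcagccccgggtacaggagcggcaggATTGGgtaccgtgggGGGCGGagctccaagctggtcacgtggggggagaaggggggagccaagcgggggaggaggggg
*Klf7* (ENSMUSG00000025959) spans chr1:64029447-64122282 in GENCODE M21, and its promoter window covers chr1:64121390-64121639 on the minus strand, with GGGCGG and CACCC in capitals, the latter in its complement GGGTG. The whole *Klf7* window lies inside this span, as do the last bases of the *Klf2* and *Klf6* windows in theirs. RefSeq and GENCODE M21 thus place these starts differently, and the windows are promoters by the RefSeq start only.
Klf7: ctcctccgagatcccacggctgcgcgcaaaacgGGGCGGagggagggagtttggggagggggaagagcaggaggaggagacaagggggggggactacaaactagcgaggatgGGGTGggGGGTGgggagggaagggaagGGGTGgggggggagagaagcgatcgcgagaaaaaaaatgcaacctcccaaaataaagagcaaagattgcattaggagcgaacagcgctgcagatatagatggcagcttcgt

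Both strands of each window were searched for 8 motifs, and the share of all 32851 RefSeq mouse promoter windows of the same length holding the motif is given beside the members. GGGCGG, the GC box, was found in 6 of 7 members against 32.7% of all windows. CACCC occurred in 5 of 7 members against 52.0%, and CCAAT in *Klf6*, *Klf9* and *Klf13*, 3 of 7, against 33.8%. The MEF2 consensus was found in *Klf2* alone, 108 bases before the start, against 2.92% of all windows. None of the 7 windows held TATAAA, the full cyclic AMP response element TGACGTCA, the CArG box or the NF-kappaB consensus, which occurred in 12.4%, 1.55%, 1.47% and 7.25% of all windows. These counts describe letters in short windows, and factor binding was not measured.

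*Tnf*, *Il1b*, *Il6*, *Nfkbia* and *Cxcl2*, known LPS-induced genes, were called higher in all 4 LPS comparisons. Library totals were 11638273 to 16478616 counts for RAW264.7 and 17121240 to 22873094 for BMDMs. In BMDMs *Olfml3* followed the titles, with a mean of 0.597 FPKM in wild-type and 0.017 FPKM in knockout cells after PBS. In RAW264.7 it went against them: the mean was 0.163 ± 0.023 FPKM (SD, n = 3) in wild-type cells and 0.95 ± 0.275 FPKM in those labelled knockout after PBS, and it reached 18.68 FPKM in the latter after LPS. The RAW264.7 cells are therefore called "labelled knockout" throughout, and every direction given for them is that of the label. The genotype tag contradicted the title in 12 of 24 libraries, and the titles were used. Labelled knockout PBS replicate 1 stood apart from its group (mean correlation of 0.936 with its own group and 0.956 with wild-type PBS). Called results of the 8 members that rest on this library are therefore also given without it. Values of other named genes include it. None of 7 macrophage markers was at 0. Their summed level was 2975 to 3116 FPKM in wild-type RAW264.7 libraries, most of it in *Lyz2*, which encodes lysozyme. In labelled knockout RAW264.7 libraries the sum was 1037 to 1436 FPKM, with mean *Lyz2* at 317 FPKM after PBS and 408 FPKM after LPS. Without *Lyz2* the other 6 summed to 1010 to 1039 FPKM in wild-type and 894 to 1028 FPKM in labelled knockout RAW264.7 libraries after PBS, and to 833 to 857 and 645 to 649 FPKM after LPS. In BMDMs the sum of all 7 was 14730 to 15151 FPKM after PBS and 11926 to 12154 FPKM after LPS in wild-type libraries, and 16508 to 17700 and 12529 to 12815 FPKM in knockout libraries. Without *Lyz2* the order turned, with 2610 to 2699 and 2023 to 2069 FPKM in wild-type and 2332 to 2377 and 1854 to 1898 FPKM in knockout BMDMs. Summed T and NK cell, B cell, dendritic cell, mast cell and fibroblast markers stayed at or below 1.28 FPKM in every library, and neutrophil markers at or below 0.2 FPKM in RAW264.7 and between 4.58 and 7.99 FPKM in BMDMs with *Ly6g* at 0. In bulk RNA, fewer cells expressing a gene and less RNA per cell cannot be told apart.

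Levels below are in FPKM, a fragment count scaled for gene length and sequencing depth, as the authors deposited it, which allows levels of different genes to be compared. Fold changes are differences of mean log2(FPKM + 0.1), tested by limma over all genes of one cell type with 12 libraries in a fit, with two-sided p-values adjusted over all genes by Benjamini-Hochberg, and a gene counted as called when its adjusted p was under 0.05 and its fold reached 1.5. Genes at 0 FPKM in every library of a cell type were left out, and all 8 members were tested in both.

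*Klf6* was the most abundant of these KLFs in 7 of 8 groups. In wild-type BMDMs it measured 80.7 ± 0.10 FPKM (SD, n = 3) after PBS, which was 64.0% of the summed level of the 8 members, and 251 ± 1.2 FPKM after LPS, which was 89.2%. In wild-type RAW264.7 cells it measured 15.6 ± 0.49 FPKM after PBS, 31.6% of the sum. Below it in resting wild-type BMDMs came *Klf13* at 13.8 and *Klf10* at 13.2 FPKM, whose library ranges overlapped, then *Klf3* at 8.59, then *Klf2* at 2.93 and *Klf7* at 2.91, which overlapped, and *Klf9* at 2.18 and *Klf4* at 1.89, which overlapped too. The order differed in resting wild-type RAW264.7 cells. There *Klf4* at 9.26 and *Klf10* at 8.93 FPKM overlapped below *Klf6*, *Klf9*, *Klf13* and *Klf2* followed at 4.68, 4.36 and 4.01 with each overlapping its neighbour, and *Klf7* at 2.47 and *Klf3* at 0.107 FPKM each stood apart. The exception to the lead of *Klf6* was resting labelled knockout RAW264.7, where *Klf4* came first at 9.67 FPKM, and *Klf10*, *Klf2* and *Klf6* followed at 6.56, 5.61 and 5.55 FPKM with each overlapping the next.

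Set side by side across the cell types, whose tables were normalised separately so that no test was made, resting wild-type *Klf3* was 80.6-fold higher in BMDMs. *Klf6* was 5.17-fold and *Klf13* 3.16-fold higher in BMDMs, whereas *Klf4* was 4.89-fold and *Klf9* 2.15-fold higher in RAW264.7. *Klf10* (1.47-fold higher in BMDMs), *Klf2* (1.37-fold higher in RAW264.7) and *Klf7* (1.18-fold higher in BMDMs) differed less. The plot of KLF levels by library shows each of these values.

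**Figure D1:**
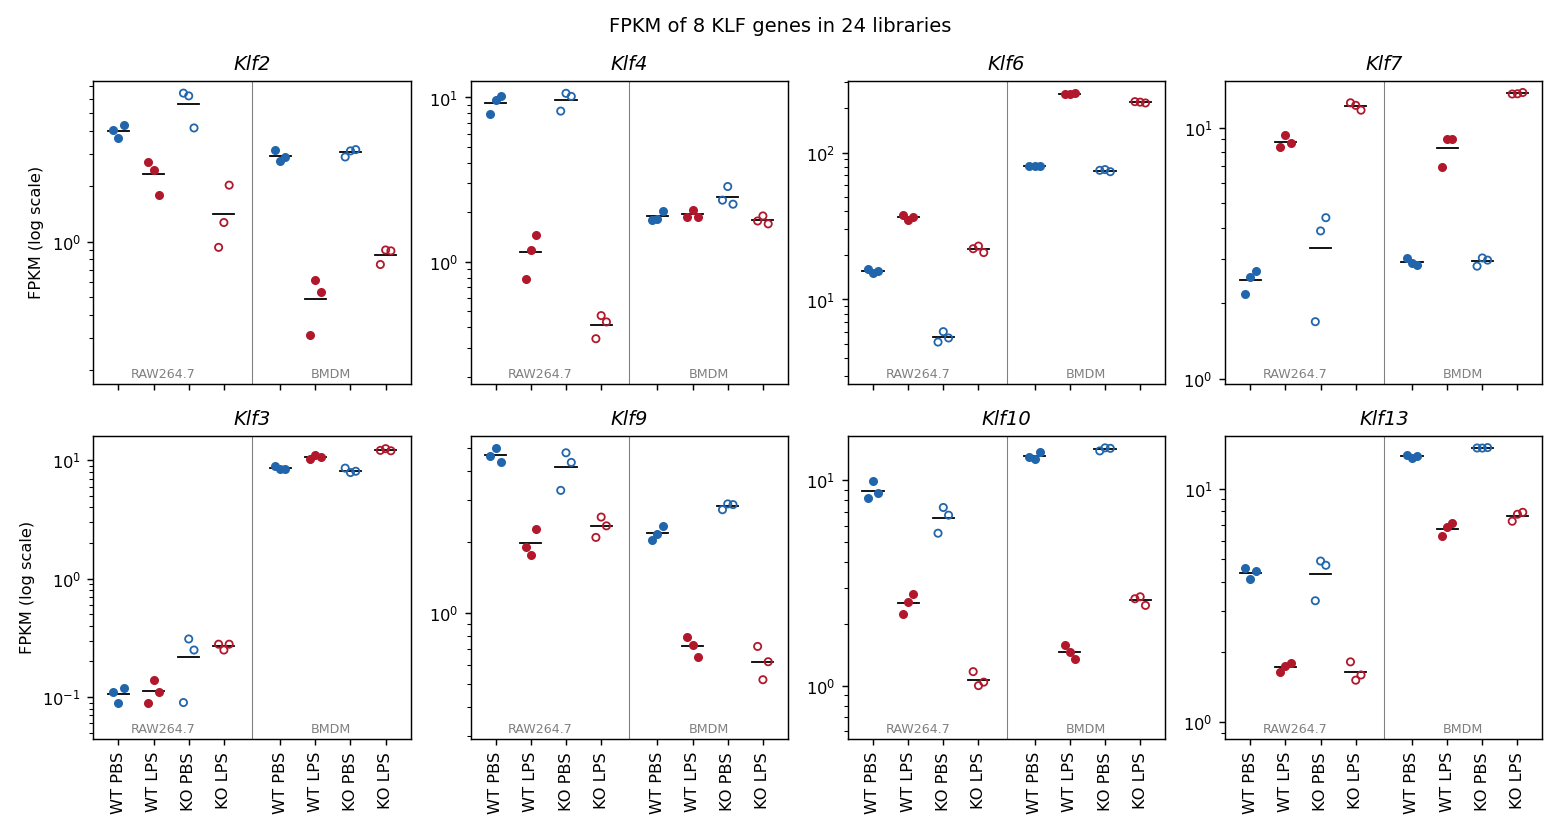
Level of each of the 8 KLF genes in all 24 libraries, in FPKM on a log axis, with 1 panel per gene; filled points are wild type, open points knockout by label, blue PBS and red LPS, and bars are means of 3 libraries. *Klf6* lies between 74.05 and 252.26 FPKM in every BMDM library, and *Klf3* at or below 0.31 FPKM in every RAW264.7 library.

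*Klf6* and *Klf7* rose after LPS in both cell types and both genotypes. *Klf6* was at 16.05, 15.07 and 15.68 FPKM in the wild-type RAW264.7 libraries after PBS and at 37.68, 34.92 and 36.43 FPKM after LPS. All LPS libraries lay above all PBS libraries, and the rise was 1.21 on the log2 scale (SE 0.082, limma adjusted p = 3.15e-06), or 2.33-fold between the means. In wild-type BMDMs the PBS libraries held 80.55, 80.75 and 80.70 FPKM and the LPS libraries 249.97, 251.61 and 252.26 FPKM. The groups were again fully separate, 3.12-fold apart, with a log2 change of 1.64 (SE 0.037, limma adjusted p = 2.83e-10). In knockout BMDMs *Klf6* went from 75.67, 76.54 and 74.05 FPKM to 221.86, 220.15 and 217.37 FPKM, a log2 change of 1.54 (limma adjusted p = 4.11e-10).

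*Klf7* was at 2.17, 2.54 and 2.69 FPKM in resting wild-type RAW264.7 and at 8.39, 9.30 and 8.66 FPKM after LPS. Its rise there was 3.56-fold between the means, with a log2 change of 1.80 (SE 0.28, limma adjusted p = 0.00105) and no overlap. In wild-type BMDMs *Klf7* went from 3.03, 2.88 and 2.83 FPKM to 6.95, 8.97 and 9 FPKM, where replicate 1 was the lowest of the LPS libraries but above all PBS libraries. The log2 change was 1.47 (SE 0.092, limma adjusted p = 2.95e-07), or 2.85-fold. In knockout BMDMs the PBS libraries held 2.81, 3.03 and 2.97 FPKM and the LPS libraries 13.59, 13.62 and 13.78 FPKM, 4.65-fold apart with a log2 change of 2.18 (limma adjusted p = 1.96e-08).

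*Klf10*, *Klf9* and *Klf13* fell after LPS in both cell types, and *Klf10* fell furthest of the 8 in BMDMs. In wild-type BMDMs *Klf10* dropped from 13.00, 12.70 and 13.79 FPKM to 1.57, 1.46 and 1.35 FPKM. The groups lay far apart, 9.02-fold by their means, with a log2 change of -3.09 (SE 0.064, limma adjusted p = 1.59e-10). In wild-type RAW264.7 it dropped from 8.21, 9.90 and 8.67 FPKM to 2.24, 2.57 and 2.80 FPKM, without overlap, with a log2 change of -1.78 (SE 0.13, limma adjusted p = 6.00e-06). In knockout BMDMs it dropped from 13.92, 14.41 and 14.33 FPKM to 2.65, 2.71 and 2.46 FPKM, a log2 change of -2.40 (limma adjusted p = 8.21e-10).

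*Klf9* went from 2.04, 2.16 and 2.34 FPKM after PBS to 0.79, 0.73 and 0.65 FPKM after LPS in wild-type BMDMs, a 3.01-fold fall with a log2 change of -1.47 (limma adjusted p = 7.63e-07). In wild-type RAW264.7 it went from 4.63, 5.03 and 4.38 FPKM to 1.90, 1.76 and 2.27 FPKM, with a log2 change of -1.21 (limma adjusted p = 0.000196). No library of one treatment reached the range of the other in either cell type. *Klf13* fell from 4.57, 4.09 and 4.42 FPKM to 1.64, 1.73 and 1.79 FPKM in wild-type RAW264.7, a log2 change of -1.29 (limma adjusted p = 8.75e-05). In wild-type BMDMs it fell from 13.93, 13.51 and 13.87 FPKM to 6.26, 6.83 and 7.12 FPKM, a log2 change of -1.02 (limma adjusted p = 1.19e-07). Its BMDM libraries were also fully separate, and the median expressed gene fell by 0.73 on the log2 scale in the same comparison. In knockout BMDMs the log2 changes were -2.04 for *Klf9* and -0.96 for *Klf13* (limma adjusted p = 7.84e-08 and 2.22e-07).

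*Klf4* separated the cell types. In wild-type RAW264.7 it was at 7.98, 9.61 and 10.18 FPKM after PBS and at 0.79, 1.18 and 1.45 FPKM after LPS. It was thus 8.12-fold lower after LPS without overlap, with a log2 change of -2.95 (SE 0.20, limma adjusted p = 3.69e-06). In wild-type BMDMs it was at 1.80, 1.83 and 2.05 FPKM after PBS and at 1.88, 2.07 and 1.88 FPKM after LPS. These libraries overlapped, and the log2 change was 0.04 (SE 0.095, limma adjusted p = 0.821). In knockout BMDMs *Klf4* went from 2.37, 2.87 and 2.24 FPKM to 1.77, 1.90 and 1.70 FPKM, a log2 change of -0.45 (limma adjusted p = 0.00243) that missed the fold limit.

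*Klf2* went from 3.14, 2.75 and 2.89 FPKM to 0.31, 0.62 and 0.53 FPKM with LPS in wild-type BMDMs. It fell 6.01-fold without overlap, with a log2 change of -2.40 (SE 0.18, limma adjusted p = 1.04e-06), although the LPS libraries held 13 to 25 *Klf2* counts each. In knockout BMDMs it went from 2.89, 3.12 and 3.17 FPKM to 0.75, 0.90 and 0.89 FPKM, a log2 change of -1.74 (limma adjusted p = 1.38e-05). In wild-type RAW264.7 it was at 4.05, 3.66 and 4.32 FPKM after PBS and at 2.71, 2.47 and 1.80 FPKM after LPS. The groups did not overlap, but the log2 difference of -0.78 (SE 0.27) missed the threshold (limma adjusted p = 0.0687). It was called with a pseudocount of 1 (adjusted p = 0.0474) or when genes below 1 FPKM were dropped (adjusted p = 0.0330). By edgeR (-0.56), DESeq2 (-0.55) and median-ratio scaling (-0.54) it fell under the fold limit and was not called (adjusted p = 0.0821, 0.105 and 0.217).

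*Klf3* was barely detected in RAW264.7, with 13 to 55 counts per library. In wild-type RAW264.7 it was at 0.11, 0.09 and 0.12 FPKM after PBS and at 0.09, 0.14 and 0.11 FPKM after LPS, overlapping ranges with a log2 difference of 0.04 (95% interval from -0.50 to 0.58). In wild-type BMDMs it was at 8.91, 8.44 and 8.43 FPKM after PBS and at 10.26, 11 and 10.62 FPKM after LPS. The BMDM groups did not overlap and the log2 difference of 0.30 passed on its adjusted p alone (0.000537 by limma) but not on fold. In knockout BMDMs the level went from 8.60, 7.89 and 8.09 FPKM to 12.14, 12.56 and 12.05 FPKM, a log2 difference of 0.58 (limma adjusted p = 4.86e-06), just under the fold limit.

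In the RAW264.7 cells labelled knockout, 7 of 8 members were called between LPS and PBS. *Klf4* went from 8.26, 10.60 and 10.15 FPKM to 0.34, 0.47 and 0.43 FPKM, 23.4-fold lower, with a log2 change of -4.25 (limma adjusted p = 2.10e-07) and 12 to 19 counts per LPS library. *Klf10* went from 5.53, 7.38 and 6.77 FPKM to 1.17, 1.00 and 1.04 FPKM, a log2 change of -2.50 (limma adjusted p = 4.08e-07). *Klf2* went from 6.44, 6.22 and 4.16 FPKM to 0.93, 1.27 and 2.03 FPKM, a log2 change of -1.96 (limma adjusted p = 0.000359). All 3 fell without overlap. *Klf6* rose from 5.13, 6.04 and 5.47 FPKM to 22.15, 23.07 and 20.86 FPKM, a log2 change of 1.97 (limma adjusted p = 8.06e-08). *Klf7* rose from 1.69, 3.88 and 4.38 FPKM to 12.54, 12.25 and 11.72 FPKM, a log2 change of 1.95 (limma adjusted p = 0.000507). The lone PBS library near 1.7 FPKM was replicate 1, the library that stood apart, and without it the *Klf7* change was 1.54. *Klf13* went from 3.31, 4.90 and 4.70 FPKM to 1.81, 1.51 and 1.59 FPKM, a log2 change of -1.33 (limma adjusted p = 5.98e-05). *Klf9* went from 3.31, 4.78 and 4.35 FPKM to 2.09, 2.55 and 2.34 FPKM, a log2 change of -0.80 (limma adjusted p = 0.00248), which missed the fold limit under median-ratio scaling (-0.54) and DESeq2 (-0.56). *Klf3* differed by 0.30 (limma adjusted p = 0.425). Without replicate 1 the changes were 1.92 for *Klf6*, -4.36 for *Klf4*, -2.62 for *Klf10*, -1.85 for *Klf2*, -1.50 for *Klf13*, -0.95 for *Klf9* and -0.04 for *Klf3*, and the same 7 members were called.

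Counted over the members, LPS called 6 of 8 in wild-type RAW264.7, 2 higher and 4 lower, where 18.3% of the 26740 genes tested were called, 5.8% higher and 12.5% lower. The share was 32.6% among the 11336 genes with a mean of at least 1 FPKM. In labelled knockout RAW264.7 the count was 7, 2 higher and 5 lower, against 22.1% of all genes, 7.45% higher and 14.6% lower (37.9% of genes at 1 FPKM or more, and 21.8% of all genes without replicate 1). In BMDMs it was 6 in each genotype, 2 higher and 4 lower. There 40.4% of the 26973 genes tested were called in wild-type cells, 7.94% higher and 32.5% lower, and 68.2% of the 10555 genes at 1 FPKM or more. In knockout BMDMs 38.9% were called, 8.02% higher and 30.9% lower, and 64.1% of genes at 1 FPKM or more. The members' share of 6 of 8 in BMDMs was thus near that of expressed genes. The median log2 difference over the 8 members was -0.99 and -1.06 in wild-type and labelled knockout RAW264.7, against -0.05 and -0.07 over all genes tested, and -0.49 and -0.71 in wild-type and knockout BMDMs, against -0.30 and -0.28. Over genes at 1 FPKM or more the medians were -0.21 and -0.23 in RAW264.7 and -0.73 and -0.62 in BMDMs, so the members lay above that median in wild-type BMDMs and below it in the other 3 comparisons. The plot of LPS responses gives each value with its interval.

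**Figure D2:**
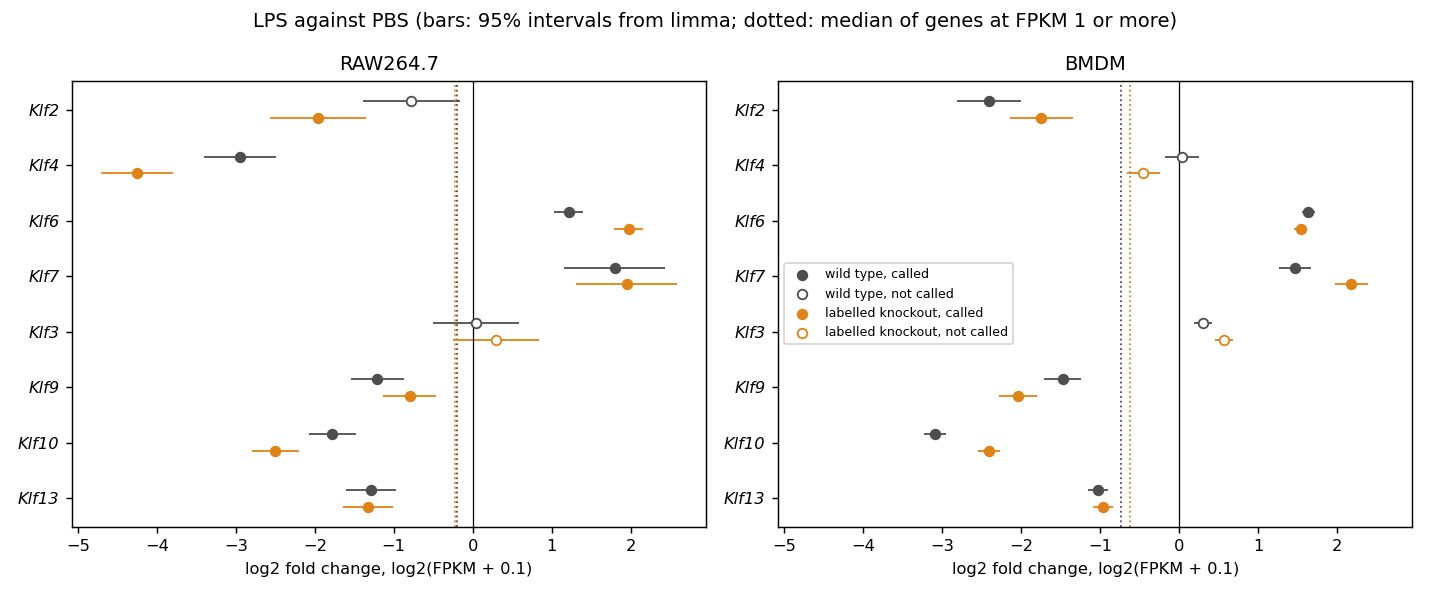
LPS against PBS log2 difference of each KLF gene in both cell types, with 95% limma intervals from 3 libraries per group; grey is wild type, orange knockout by label, filled points were called, and the dotted lines mark the median of genes with at least 1 FPKM. *Klf6* and *Klf7* lie above 0 and *Klf2*, *Klf9*, *Klf10* and *Klf13* below 0 in both cell types, while *Klf4* lies at -2.95 and -4.25 in RAW264.7 and at 0.04 and -0.45 in BMDMs.

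The size of the BMDM changes depended on scaling, and the median expressed gene moved with LPS. On the FPKM scale the median log2 difference of genes with at least 1 FPKM was -0.73 in wild-type and -0.62 in knockout BMDMs, but -0.21 and -0.23 in wild-type and labelled knockout RAW264.7. Relative to that median the wild-type BMDM differences were 2.37 for *Klf6*, 2.20 for *Klf7*, 1.03 for *Klf3*, 0.77 for *Klf4*, -0.29 for *Klf13*, -0.74 for *Klf9*, -1.68 for *Klf2* and -2.36 for *Klf10*. With edgeR on the counts, whose scaling puts the median near 0, 7 of 8 members were called in wild-type BMDMs, 4 higher and 3 lower, where 56.0% of genes were called, and 6 in knockout BMDMs, 3 in each direction, where 53.5% were called. By edgeR *Klf3* was higher by 1.08 and 1.25 in the wild-type and knockout cells and *Klf4* by 0.81 in wild-type cells, all called. The knockout value of *Klf4* was 0.19 by edgeR, of opposite sign to the FPKM value, and was not called. *Klf13* kept its direction at -0.26 and -0.30 but lost its call on fold. *Klf6*, *Klf7*, *Klf2*, *Klf9* and *Klf10* were called in the same direction on both scales in wild-type cells. The plot of scalings shows how far each member moved.

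**Figure D3:**
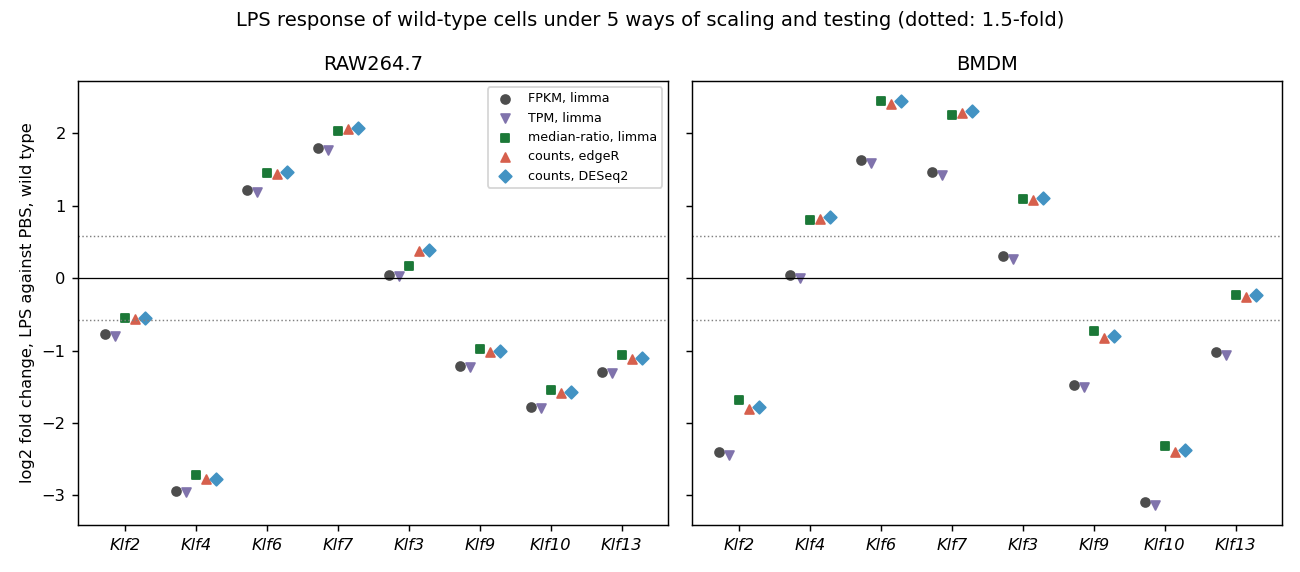
Wild-type LPS against PBS log2 difference of each KLF gene under 5 scalings of the same libraries, for RAW264.7 and BMDM; dotted lines mark a fold of 1.5. In BMDMs *Klf13* crosses the lower line, from -1.02 to -0.26, and *Klf3* and *Klf4* the upper line, from 0.30 to 1.08 and from 0.04 to 0.81, between FPKM and edgeR.

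The genotype comparison asked how KLF expression differed between cells titled *Olfml3* knockout and wild type. In RAW264.7 *Olfml3* mRNA was higher under the knockout label, and an mRNA level does not show whether the protein was lost. The differences there are given by label, and their relation to loss of *Olfml3* was not tested. In resting RAW264.7, *Klf6* was the one member called, at 16.05, 15.07 and 15.68 FPKM in wild-type and 5.13, 6.04 and 5.47 FPKM in labelled knockout libraries. The labelled knockout level was 2.81-fold lower without overlap, with a log2 difference of -1.48 (95% interval -1.66 to -1.29, limma adjusted p = 4.18e-06). *Klf10*, at 8.21, 9.90 and 8.67 against 5.53, 7.38 and 6.77 FPKM, was lower in each labelled knockout library but missed the threshold (-0.44, limma adjusted p = 0.0571). It was at -0.33 without replicate 1 of the labelled knockout (limma adjusted p = 0.0667). The differences of the other members lay between -0.18 (*Klf9*) and 0.55 (*Klf3*), with limma adjusted p from 0.165 to 0.947. One member of 8 compares with 8.55% of all genes and 13.2% of those at 1 FPKM or more. Without replicate 1 of the labelled knockout, *Klf6* stayed lower at -1.42 (limma adjusted p = 2.46e-06), and *Klf3* at 0.88 and *Klf7* at 0.72 were also called (limma adjusted p = 0.000472 and 0.000553), which made 3 members where 20.8% of all genes were called. Of the 7 macrophage markers, 5 had lower means in labelled knockout cells, among them *Lyz2* (317 against 2052 FPKM), and *Csf1r* (340 against 263 FPKM) and *Fcgr1* (22.1 against 18.3 FPKM) had higher ones. Their part in these differences was not tested.

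After LPS, 4 of 8 members were called between the RAW264.7 genotypes, 1 higher and 3 lower, where 17.3% of all genes were called, 9.73% higher and 7.6% lower, and 28.1% of genes at 1 FPKM or more. *Klf10* was at 2.24, 2.57 and 2.80 FPKM in wild-type and at 1.17, 1.00 and 1.04 FPKM in labelled knockout libraries, a log2 difference of -1.17 (SE 0.13, limma adjusted p = 0.000325). *Klf4* was at 0.79, 1.18 and 1.45 against 0.34, 0.47 and 0.43 FPKM, a log2 difference of -1.24 (SE 0.20, limma adjusted p = 0.00276). *Klf6* was at 37.68, 34.92 and 36.43 against 22.15, 23.07 and 20.86 FPKM, a log2 difference of -0.72 (SE 0.082, limma adjusted p = 0.000349). All 3 were lower in every labelled knockout library, and *Klf6* missed the fold limit with TPM scaling (-0.49, adjusted p = 0.0164). *Klf3* was called higher at 0.80 (limma adjusted p = 0.0379), from 13, 23 and 18 counts against 36, 37 and 38, and it lost the call in each of the 6 fits that left out 1 of these libraries (adjusted p from 0.0610 to 0.114). Without labelled knockout PBS replicate 1, which enters through the shared spread, the same 4 members were called, *Klf3* at adjusted p = 0.000413, and *Klf7* had an adjusted p of 0.00346 but stayed under the fold limit. *Klf2*, at 2.71, 2.47 and 1.80 against 0.93, 1.27 and 2.03 FPKM, overlapped between genotypes and was not called by limma (-0.73, adjusted p = 0.0800). It was called by edgeR (adjusted p = 0.0418), by DESeq2 (0.0360) and without labelled knockout LPS replicate 3 (0.0238, at -1.01). *Klf7*, *Klf9* and *Klf13* differed by 0.47, 0.23 and -0.07 (limma adjusted p = 0.296, 0.333 and 0.819). All 7 macrophage markers had lower means in the labelled knockout after LPS, and their part was not tested here either.

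In resting BMDMs no member was called by limma, edgeR or DESeq2, against 1.81% of all genes and 3.13% of those at 1 FPKM or more by limma. Unadjusted p was under 0.05 for 3 members, *Klf4*, *Klf9* and *Klf6*. *Klf4* was at 1.80, 1.83 and 2.05 FPKM in wild-type and 2.37, 2.87 and 2.24 FPKM in knockout cells, and *Klf9* at 2.04, 2.16 and 2.34 against 2.74, 2.90 and 2.88 FPKM. Neither pair of groups overlapped, and both differed by 0.37 on the log2 scale (limma adjusted p = 0.0653 and 0.103). The other 6 members differed by -0.10 (*Klf6*) to 0.12 (*Klf13*), and of these *Klf6*, *Klf10* and *Klf13* did not overlap between genotypes either. By edgeR *Klf4*, *Klf9* and *Klf6* passed on adjusted p (0.0311, 0.0130 and 0.00120) and missed only the fold limit.

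After LPS, 3 of 8 members were higher in knockout than in wild-type BMDMs and none was called lower, where 4.76% of all genes were called, 3.23% higher and 1.53% lower, and 8.34% of genes at 1 FPKM or more. *Klf10* was at 1.57, 1.46 and 1.35 FPKM in wild-type and 2.65, 2.71 and 2.46 FPKM in knockout cells, a 1.79-fold rise with a log2 difference of 0.80 (SE 0.064, limma adjusted p = 5.52e-05). *Klf7* was at 6.95, 8.97 and 9 against 13.59, 13.62 and 13.78 FPKM, a log2 difference of 0.72 (SE 0.092, limma adjusted p = 0.000625). Both were higher in every knockout library. *Klf7* missed the fold limit with edgeR (0.57), DESeq2 (0.56) and median-ratio scaling (0.57), as *Klf10* did with a pseudocount of 1 (0.55). *Klf2* was at 0.31, 0.62 and 0.53 against 0.75, 0.90 and 0.89 FPKM, a log2 difference of 0.73 (SE 0.18, limma adjusted p = 0.0192) on 13 to 38 counts per library. Its groups did not overlap, but the call was lost with DESeq2 (adjusted p = 0.0643) and with limma after median-ratio scaling (adjusted p = 0.0598). It was also lost without wild-type LPS replicate 1 (0.49) or knockout LPS replicate 2 or 3 (adjusted p = 0.0635 and 0.0621). *Klf6*, at 249.97, 251.61 and 252.26 against 221.86, 220.15 and 217.37 FPKM, was lower in every knockout library by a small amount (-0.19, limma adjusted p = 0.00573) below the fold limit. *Klf3* differed by 0.20 (limma adjusted p = 0.0217), also below the fold limit, and *Klf13*, *Klf9* and *Klf4* by 0.18, -0.20 and -0.11 (limma adjusted p = 0.0541, 0.275 and 0.541). The median of genes with at least 1 FPKM was itself 0.14 higher in knockout cells. Of the 7 macrophage markers, 4 had higher and 3 lower means in these knockout libraries.

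Set next to one another, the genotype differences of *Klf10* after LPS were -1.17 in RAW264.7 and 0.80 in BMDMs, and of *Klf2* -0.73 and 0.73. Those of *Klf9* (0.23 and -0.20) and *Klf13* (-0.07 and 0.18) also differed in sign but were called in neither cell type. The sign was shared by *Klf6* (-0.72 and -0.19), *Klf7* (0.47 and 0.72), *Klf4* (-1.24 and -0.11) and *Klf3* (0.80 and 0.20). The difference between cell types was not tested. The signs in RAW264.7 are those of the label, under which *Olfml3* mRNA was higher in the knockout. Whether the label is wrong was not tested. With the label turned, *Klf2*, *Klf9*, *Klf10* and *Klf13* would have the same sign in both cell types, and *Klf3*, *Klf4*, *Klf6* and *Klf7* opposite ones. The plot of genotype differences shows the members of both cell types with their intervals.

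**Figure D4:**
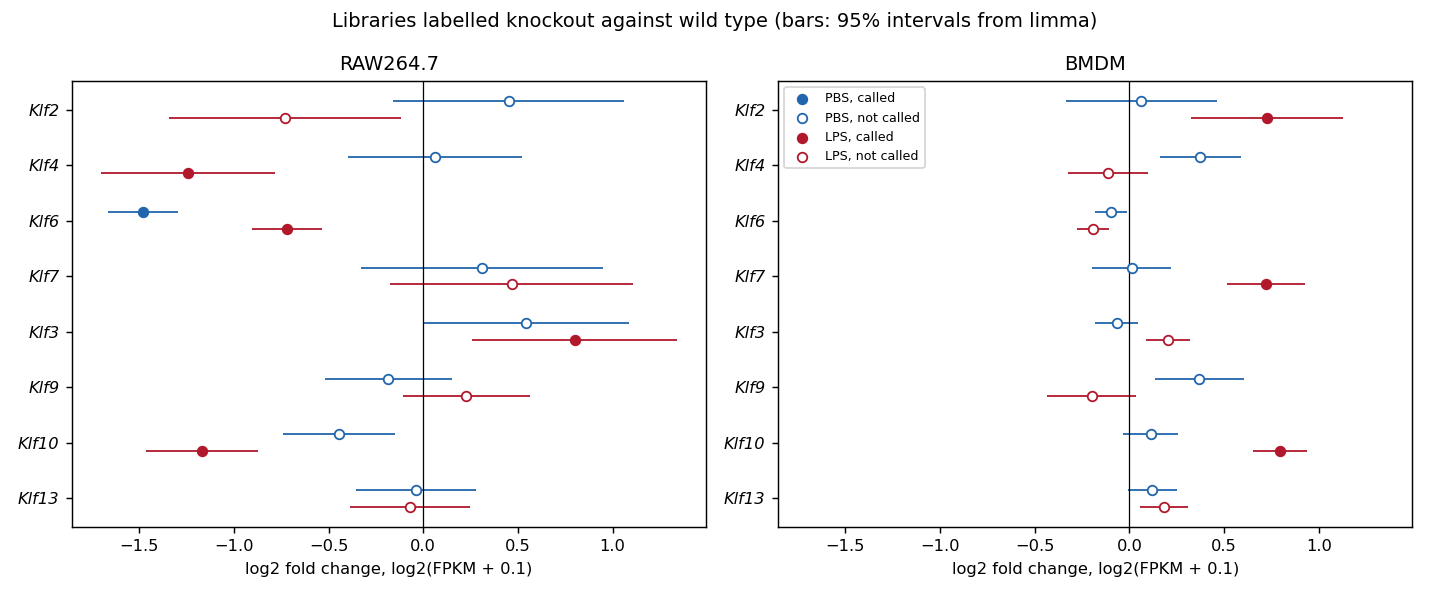
Knockout against wild-type log2 difference of each KLF gene by label, with 95% limma intervals from 3 libraries per group, for RAW264.7 and BMDM; blue is PBS, red LPS, and filled points were called. In RAW264.7 *Klf6* is lowest after PBS at -1.48, and in BMDMs the called members are *Klf10* at 0.80, *Klf2* at 0.73 and *Klf7* at 0.72 after LPS.

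Whether the LPS response itself differed by genotype was tested with an interaction term, the knockout LPS change minus the wild-type one. In RAW264.7, *Klf6* was called at 0.76 (SE 0.12, limma adjusted p = 0.0103), its response being 1.97 in labelled knockout and 1.21 in wild-type cells, and it missed the threshold with TPM scaling (0.80, adjusted p = 0.0519), while 1.95% of all genes and 2.84% of those at 1 FPKM or more were called. *Klf4* at -1.31 (SE 0.29) and *Klf10* at -0.73 (SE 0.19) missed the threshold (limma adjusted p = 0.0565 and 0.109). Both passed with edgeR (adjusted p = 0.0135 and 0.0401) and without labelled knockout PBS replicate 1 (-1.41 and -0.84, limma adjusted p = 0.0356 and 0.0212), where *Klf6* was at 0.70 (limma adjusted p = 0.00469) and 3.41% of all genes were called. In BMDMs, *Klf7* at 0.71 (SE 0.13, limma adjusted p = 0.0124) and *Klf10* at 0.68 (SE 0.090, limma adjusted p = 0.0023) were called, against 2.91% of all genes and 5.42% of those at 1 FPKM or more. *Klf7* thus rose more and *Klf10* fell less with LPS in knockout BMDMs, although *Klf10* missed the fold limit with a pseudocount of 1 (0.45). *Klf9* at -0.57 and *Klf4* at -0.49 missed the threshold (limma adjusted p = 0.0535 and 0.0677) and passed with edgeR (adjusted p = 0.00490 and 0.00922). For *Klf2* the term was 0.66 in BMDMs (limma adjusted p = 0.184) and -1.18 in RAW264.7 (0.241). The genotype, LPS and interaction comparisons share libraries within a cell type and are not independent of each other.

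Genes around the KLFs were counted in lists, and each count stands against the share of all genes called. For LPS in wild-type cells that share was 40.4% in BMDMs (68.2% at 1 FPKM or more, 56.0% by edgeR) and 18.3% in RAW264.7 (32.6%). Between genotypes it was 8.55% after PBS and 17.3% after LPS in RAW264.7 (28.1% at 1 FPKM or more after LPS) and 1.81% and 4.76% in BMDMs. Of the MEK5-ERK5-MEF2 pathway, the kinases and factors upstream of *Klf2* and *Klf4*, all 7 genes fell with LPS in BMDMs of both genotypes, with a median log2 difference of -1.90 in wild-type cells against -0.73 over genes at 1 FPKM or more, and all 7 were also called lower by edgeR in wild-type cells. *Mapk7*, which encodes ERK5, went from 7.62 ± 0.23 to 0.993 ± 0.032 FPKM (SD, n = 3), *Mef2d* from 17.8 ± 0.57 to 1.66 ± 0.19 FPKM and *Mef2c* from 14.9 ± 0.23 to 1.58 ± 0.070 FPKM. *Mapk7* at 0.82 and *Mef2d* at 0.73 were higher in knockout than in wild-type BMDMs after LPS, 2 of 7. In wild-type RAW264.7 the LPS count was 2 lower, *Mef2d* at -0.64 and *Mef2c* at -1.29. *Mef2c* was higher in labelled knockout cells by 1.08 after PBS, where it was the 1 gene called, and by 1.44 after LPS, where 3 of 7 were called higher.

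*Klf2* target genes were followed through 5 symbols. *S1pr1*, the sphingosine-1-phosphate receptor, went from 27.4 ± 0.46 to 0.89 ± 0.26 FPKM with LPS in wild-type BMDMs and from 1.77 ± 0.11 to 0.0067 ± 0.012 FPKM in wild-type RAW264.7. In wild-type BMDMs 4 of 5 were lower and 1 higher (2 and 1 of 4 by edgeR), and in wild-type RAW264.7 2 of 4 tested were lower (1 of 2 by edgeR). In labelled knockout RAW264.7 after PBS, *S1pr1* was higher (10.5 ± 1.8 against 1.77 ± 0.11 FPKM), and *Itgb7*, an integrin subunit, and *Nos3*, the endothelial nitric oxide synthase, were lower, by log2 differences of -3.04 and -0.87. Only 2 of these 4 genes had enough counts to be tested by edgeR, which called 1 higher and 1 lower. After LPS *Itgb7* alone was called, at -2.82. Of the 4 alternative activation genes linked to *Klf4*, *Mrc1*, the mannose receptor, fell from 120 ± 5.2 to 57.0 ± 3.3 FPKM in wild-type BMDMs, a log2 change of -1.07 that was -0.30 by edgeR, and it was the single one lower there (edgeR tested 2 and called 1 higher). In RAW264.7 3 of the 4 were tested, all below 0.3 FPKM on average in every group. There *Mrc1* was higher with LPS in wild-type cells (0.0067 ± 0.0058 to 0.157 ± 0.081 FPKM) and *Arg1*, arginase 1, in labelled knockout cells (0.047 ± 0.015 to 0.257 ± 0.055 FPKM).

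Of 7 glucocorticoid receptor and target genes beside *Klf9*, 5 were lower and 1 was higher with LPS in wild-type BMDMs, or 3 and 2 by edgeR. *Tsc22d3*, which encodes GILZ, went from 20.2 ± 0.20 to 1.11 ± 0.047 FPKM, *Per1*, a clock gene, from 4.07 ± 0.047 to 0.257 ± 0.012 FPKM, and *Dusp1*, a MAP kinase phosphatase, rose from 10.5 ± 0.18 to 41.0 ± 2.9 FPKM. In wild-type RAW264.7 2 were higher and 1 lower, *Tsc22d3* at -2.55, and *Per1* differed by 0.02. *Per1* was 0.86 higher in knockout than wild-type BMDMs after LPS.

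Of 10 TGF-beta pathway genes beside *Klf10*, 2 were higher and 6 lower with LPS in wild-type BMDMs (3 and 3 by edgeR), and 4 higher and 3 lower in wild-type RAW264.7. *Smad3*, a signal transducer of the pathway, changed by -3.65 and -2.42 in wild-type BMDMs and RAW264.7, and the receptor genes *Tgfbr1* (-1.74 and -1.53) and *Tgfbr2* (-1.19 and -1.41) fell with it. In labelled knockout RAW264.7, *Tgfbr1* was at 23.5 ± 6.8 FPKM after PBS against 3.79 ± 0.012 FPKM in wild-type cells, and after LPS at 5.80 ± 0.29 against 1.26 ± 0.29 FPKM. In BMDMs it was the 1 gene of the list called between genotypes, higher after LPS by 0.60, and edgeR called none.

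Among the other KLF and SP genes, 15 of 18 were tested in BMDMs and 13 in RAW264.7. With LPS 1 was higher and 5 were lower in BMDMs of each genotype (2 and 3 of 7 genes by edgeR in wild-type cells), and 1 higher and 4 lower in RAW264.7 of each genotype. *Klf11*, the closest relative of *Klf10*, went from 2.35 ± 0.14 to 0.207 ± 0.055 FPKM in wild-type BMDMs and from 1.23 ± 0.33 to 0.080 ± 0.070 FPKM in wild-type RAW264.7. *Klf8*, a CtBP-binding relative of *Klf3*, rose from 0.710 ± 0.044 to 6.79 ± 0.21 FPKM in wild-type BMDMs. In labelled knockout RAW264.7 5 of 13 were higher than in wild-type cells after LPS, among them *Sp1* (1.20), *Sp4* (1.81) and *Klf8* (1.06), where 9.73% of all genes were called higher, and none of 15 was called between BMDM genotypes by limma.

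Of the 11 genes for KLF corepressors, coactivators and the ligase *Wwp1*, 2 were higher and 6 lower with LPS in wild-type BMDMs (4 and 3 by edgeR) and 2 were lower in wild-type RAW264.7. *Wwp1*, which ubiquitinates KLF2, went from 121 ± 1.5 to 21.2 ± 0.98 FPKM in wild-type BMDMs. *Kat2b*, an acetyltransferase, was higher with LPS in wild-type BMDMs (1.18) and lower in wild-type RAW264.7 (-1.22). *Sin3a*, a corepressor scaffold, was 0.94 and 1.13 higher in labelled knockout RAW264.7 after PBS and LPS. Of 9 immediate-early genes, 6 were higher and 2 lower with LPS in wild-type RAW264.7, and 2 higher and 6 lower in wild-type BMDMs (3 and 3 by edgeR). *Junb* rose in both (2.10 and 2.09), whereas *Egr1* rose by 3.91 in RAW264.7 and changed by -1.34 in BMDMs. *Fos* and *Jun* were lower in labelled knockout RAW264.7 after LPS by log2 differences of -1.89 and -2.38, the 2 genes of that list called. Of 5 heat shock genes 1 was lower in wild-type RAW264.7 (*Dnajb1*, -0.78), which edgeR did not call while calling *Hsp90aa1* higher (0.66), and 1 was higher and 2 lower in wild-type BMDMs (3 and 1 by edgeR). Across these lists the BMDM falls stand beside the median of -0.73 given above.

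The genes whose pattern was most like each member were ranked by Pearson's r over all 24 libraries, each cell type centred on its own mean, among 9472 genes. The libraries share their treatment groups, so r is a description without a test. *Klf6* was most like *Il1rn* (0.991), the interleukin-1 receptor antagonist, *Gch1* (0.974) and *Cd14* (0.971), the LPS co-receptor. *Klf7* was most like *St3gal1* (0.986), *Msn* (0.985) and *Nrp2* (0.981), and *Klf10* most like *Cat* (0.989), which encodes catalase, *Paqr7* (0.988) and *Ppp2r5c* (0.988). *Klf13* was most like *Tgfbr2* (0.986), *Prps2* (0.984) and *Ptpra* (0.982), and *Klf9* most like *Wdr76* (0.972), *Usp1* (0.972) and *Tex2* (0.971). *Klf2* was most like *Nckipsd* (0.960), *Sike1* (0.960) and *Gmcl1* (0.959), and *Klf3* most like *Dnajc13* (0.961), *4932438A13Rik* (0.957) and *Ep400* (0.956). For *Klf4* the leading genes were *Rnpepl1* (0.985), *Vav1* (0.983) and *Eif4e3* (0.977), but within the BMDM libraries these were 0.249, -0.143 and 0.011, so the likeness rests on RAW264.7.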

How the data were processed

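Poly(A) RNA of 24 libraries (8 groups of 3) was sequenced with paired ends. The authors deposited, per cell type, 1 table with read counts and FPKM values per gene. The aligner, the counter and its strand setting were not given in the sources used here. Processing notes of the submitters name mm10, but only 2.756% of 52073 gene IDs had the same position in GENCODE M21, so table coordinates are not printed and the positions given come from GENCODE M21 and, for promoters, RefSeq (GRCm38.p6). Recomputing FPKM from the deposited counts matched the deposited FPKM within 1% for 99.879% (RAW264.7) and 99.507% (BMDM) of values over 50 counts. Each table held 56691 genes, 2639 of them without a symbol.

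Samples were grouped by title. Following the thresholds of the study, limma 3.58.1 (R 4.3.3) was fitted on log2(FPKM + 0.1), 1 fit per cell type over 12 libraries and 4 group means, with Benjamini-Hochberg adjustment over all 26740 (RAW264.7) and 26973 (BMDM) genes tested, those above 0 FPKM in any library of the cell type. The methods were tested on simulated data. Alternatives were edgeR 4.0.16 and DESeq2 1.42.0 on the counts, TPM and median-ratio scaling, a pseudocount of 1, a filter of 1 FPKM in 3 libraries, adjusted p alone, a replicate block and leaving out each library. Each FPKM value carries the counting error of its library, and values under 1 FPKM often rest on few counts.

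The genes named are the 8 members and, from lists of other KLF and SP genes, the MEK5-ERK5-MEF2 pathway, KLF cofactors, *Klf2* targets, *Klf4*-linked genes, glucocorticoid, TGF-beta, immediate-early and heat shock genes, examples beside the counts. The members and lists were chosen with earlier results of these data known. Genes overlapping *Klf3*, *Klf7* and *Klf13* held at most 23 counts in any library, and without a known strand setting reads of overlapping genes on opposite strands could not be told apart.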

Additional observations from a re-analysis of the deposited data

Results flagged for a closer look

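*Klf6* responded more to LPS in labelled knockout than in wild-type RAW264.7, with an interaction of 0.76 on the log2 scale that passed the limma threshold. In BMDMs the terms of *Klf7* (0.71) and *Klf10* (0.68) passed. In groups of 3 libraries single outlying values were not flagged here, and fits that left out each library are described below. As labelled, *Klf10* differed in sign between the cell types: after PBS the knockout minus wild-type log2 difference was -0.44 in RAW264.7 and 0.11 in BMDMs, and after LPS it was -1.17 and 0.80. Neither PBS difference was called (limma adjusted p = 0.0571 and 0.515), whereas both LPS differences were. In each case every library titled knockout lay on one side of the wild-type range in one cell type and on the other side in the other, and the difference between the cell types was not tested. The sign in RAW264.7 rests on a label under which *Olfml3* mRNA was higher in the knockout, and whether the label is wrong was not tested. With the label turned, *Klf10* would have the same sign in both cell types.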

How the results depend on the processing

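Of 80 member results, 36 were called by limma. All 36 kept their direction under every alternative, and 26 kept their call under every alternative. Results called in neither fit were counted as unchanged. For RAW264.7 knockout against wild type after PBS the 1 called member became 2 with edgeR, and 1 to 3 when a library was left out. The RAW264.7 interaction gave 3 members with the filter, 0 with TPM scaling, 3 with edgeR, 3 with DESeq2, 2 with the replicate block, and 1 to 3 when a library was left out, 3 without labelled knockout PBS replicate 1 and 2 without wild-type LPS replicate 1. For BMDM knockout against wild type after LPS the count of 3 became 1 with a pseudocount of 1, 1 with median-ratio scaling, 1 with DESeq2 and 5 on adjusted p alone. The BMDM interaction went from 2 to 1 with a pseudocount of 1 and to 4 with median-ratio scaling, edgeR and DESeq2. The cause of these changes was not tested. The filter dropped *Klf3* in RAW264.7, so 75 of 80 results could be given.

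Same-numbered replicates did not deviate together. Their correlations ran from -0.0395 to 0.0844 (median 0.00856) in RAW264.7 and from -0.0579 to 0.0711 (median 0.0287) in BMDMs, 0 of 18 over 0.1 in each, so the numbers were not read as pairs. The replicate block left 79 member results unchanged and made 1 a call, *Klf4* in the RAW264.7 interaction (adjusted p = 0.0127). Leaving out libraries kept 557 of 576 results, with 10 becoming calls and 9 losing them. With 13 to 55 counts per library, *Klf3* in RAW264.7 is limited by depth, as is *Klf2* after LPS.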
